A study of Mus musculus with 6 samples.

Results

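CD8 T cells in which neither Pdcd1 nor Lag3 was read made up 170 of 6364 kept cells in a mouse droplet single-cell RNA sequencing series, 131 of them in the Empty vector library and 39 in the Bmal1 WT library. They were chosen by their unique molecular identifiers (UMIs), each of which counts a captured transcript. A member had at least 1 UMI of Cd3e or Cd3d (chains of the T cell receptor complex), at least 1 UMI of Cd8b1 (the beta chain of the CD8 co-receptor) and 0 UMIs of Cd4, Foxp3, Csf1r, Pdcd1 and Lag3. It also had fewer than 2 UMIs of the cell cycle genes Mki67 and Top2a together. Pdcd1 and Lag3 encode the inhibitory receptors PD-1 and LAG-3. Because the same cells' UMIs chose the members, every comparison of members with other cells below is a description and carries no test. The comparison of Bmal1 WT with Empty vector, over hashtagged replicates, was tested. The group was no condition of the choice, but members and gene lists were chosen with earlier results of these data known.

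The material was labelled as the mouse melanoma line YUMM2.1, with an Empty vector group, a Bmal1 WT group and a Bmal1 bHLH group, Bmal1 being a transcription factor of the circadian clock. The members are T cells, not cells of that line, and whether they carried a vector was not tested. Each group had 3 replicates marked with hashtag antibodies, whose DNA barcodes are read beside the transcripts, and pooled in 1 capture channel (Chromium 3' chemistry, version 3.1). The labels gave no strain, age, tissue or sort, and left unsaid if the material was cultured or taken from tumors and if a hashtag marks an animal. The matrix, features and barcodes under the Bmal1 bHLH name (3 of 3) were a copy of the Bmal1 WT ones and were not used, so Bmal1 bHLH has no values here. Group and capture channel cannot be told apart, and the p-values below measure only the spread between hashtagged samples, which may be technical.

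CD8 T cells read peptides on class I molecules through the T cell receptor and the CD8 co-receptor. Naive cells carry homing molecules that admit them to lymph nodes, among them the chemokine receptor encoded by Ccr7, and the transcription factors encoded by Tcf7 and Lef1. Cells that have met antigen become memory cells or effector cells with granzymes and chemokines, among them a form rich in granzyme K (Gzmk), and repeated stimulation raises inhibitory receptors such as PD-1 and LAG-3.

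The hashtag barcodes are shown because they define the replicates on which each test of Bmal1 WT against Empty vector rests, and no position in them is set apart by capitals.
Empty vector h1: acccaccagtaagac
Empty vector h7: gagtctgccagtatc
Empty vector h8: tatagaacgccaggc
Bmal1 WT h3: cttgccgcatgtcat
Bmal1 WT h5: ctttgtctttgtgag
Bmal1 WT h9: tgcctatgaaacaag
Of the 170 members, 162 carried exactly 1 of these barcodes above background, 7 carried several and 1 carried none. The Empty vector replicates held 71 members (h1), 17 (h7) and 37 (h8). The Bmal1 WT replicates held 17 (h3), 13 (h5) and 7 (h9). The members of a replicate held between 43320 UMIs (h9) and 339990 UMIs (h1) in sum, so the Bmal1 WT values rest on fewer reads and are less precise.

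The libraries held 4147 barcodes with 34232927 UMIs (Empty vector) and 2785 barcodes with 39561569 UMIs (Bmal1 WT). Barcodes with at least 200 genes and at most 20% of UMIs from mitochondrial genes were kept, which left 3978 and 2386 cells with medians of 5094 and 7570 UMIs. The libraries shared 5 cell barcodes, none of them a member. Levels below are UMIs of a gene divided by all UMIs of the cells summed, scaled to counts per 1000000 (CPM). Intervals are exact 95% intervals and cover counting error only.

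Of the 1608 kept cells with Cd3e or Cd3d, 593 also had Cd8b1. The conditions on Cd4, Foxp3 and Csf1r left 525 cells and the condition on cycling genes left 426, of which 170 had no UMI of Pdcd1 or Lag3 and 256 had at least 1. Pdcd1 lies at chr1:94038305-94052553, Lag3 at chr6:124904361-124911705 and Cd8b1 at chr6:71322788-71337494 (GRCm38, GENCODE M21, whole gene spans). The label was checked on markers that were not used to choose the cells. Cd8a, the alpha chain of CD8, had a level of 576 CPM in members against 49.7 CPM in all other kept cells. A constant region of the alpha-beta T cell receptor (Trac, Trbc1 or Trbc2) was read in 168 of 170 members (98.8%). The gamma-delta receptor gene Trdc was read in 2 members, and Ncr1 or Klrb1c, which mark natural killer cells, in 6. Tyrobp or Fcer1g, also on the list of natural killer cell markers, was read in 17 members (10%). Any marker of that list was read in 29 members (17.1%) and any gamma-delta marker in 9 (5.29%).

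Members near the limits of the choice were counted as well. Exactly 1 UMI of Cd8b1 was read in 43 members (25.3%) and exactly 1 UMI of Cd3e and Cd3d together in 15. No Cd8a UMI was read in 25 members (14.7%), and 24 members had 1 UMI of Mki67 or Top2a. Just outside the limit on inhibitory receptors, 43 cells had exactly 1 UMI of Pdcd1 and Lag3 together.

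The absence of Pdcd1 and Lag3 moved with depth. Members had a median of 4723 UMIs (range 969 to 33357) against 5652 UMIs in the CD8 T cells with Pdcd1 or Lag3. Of the 426 CD8 T cells, 45 of 80 cells under 3000 UMIs lacked a UMI of both genes (56.3%, interval 44.7% to 67.3%), against 13 of 58 cells with 10000 UMIs or more (22.4%, interval 12.5% to 35.3%). When the CD8 T cells with Pdcd1 or Lag3 were thinned to 1000 UMIs each, 117 of 255 (45.9%) had no UMI of either gene left. The members are therefore cells in which the genes were not read, and some of them can hold the transcripts below this depth.

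Levels of several genes, but not of all, rose or fell in order with the number of Pdcd1 and Lag3 UMIs per cell. Cells were split into those with 0 (170 cells), 1 (43 cells), 2 or 3 (74 cells) and 4 or more (139 cells). Their median depth rose in the same order, at 4723, 4990, 5067 and 6638 UMIs. Tcf7, the transcription factor TCF-1 of naive and stem-like T cells, had 471 CPM with 0, 197 CPM with 1, 182 CPM with 2 or 3 and 62.3 CPM with 4 or more. Klf2, a regulator of T cell circulation, had 814, 607, 218 and 97.8 CPM in the same order. Tox, a transcription factor that accompanies chronic stimulation, ran the other way at 79.2, 114, 320 and 537 CPM. The naive genes Ccr7 and Satb1 did not follow steps but dropped at the first UMI. Ccr7 had 263 CPM in members and 31.0, 33.3 and 67.6 CPM in the other classes. Satb1, a chromatin organizer, had 921 CPM in members and 124, 131 and 84.5 CPM in the others. Themis, which acts in T cell receptor signaling, varied little, at 265, 303, 269 and 253 CPM. Gzmk was highest with 1 UMI, at 130, 228, 159 and 79.2 CPM in the same order.

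**Figure D1:**
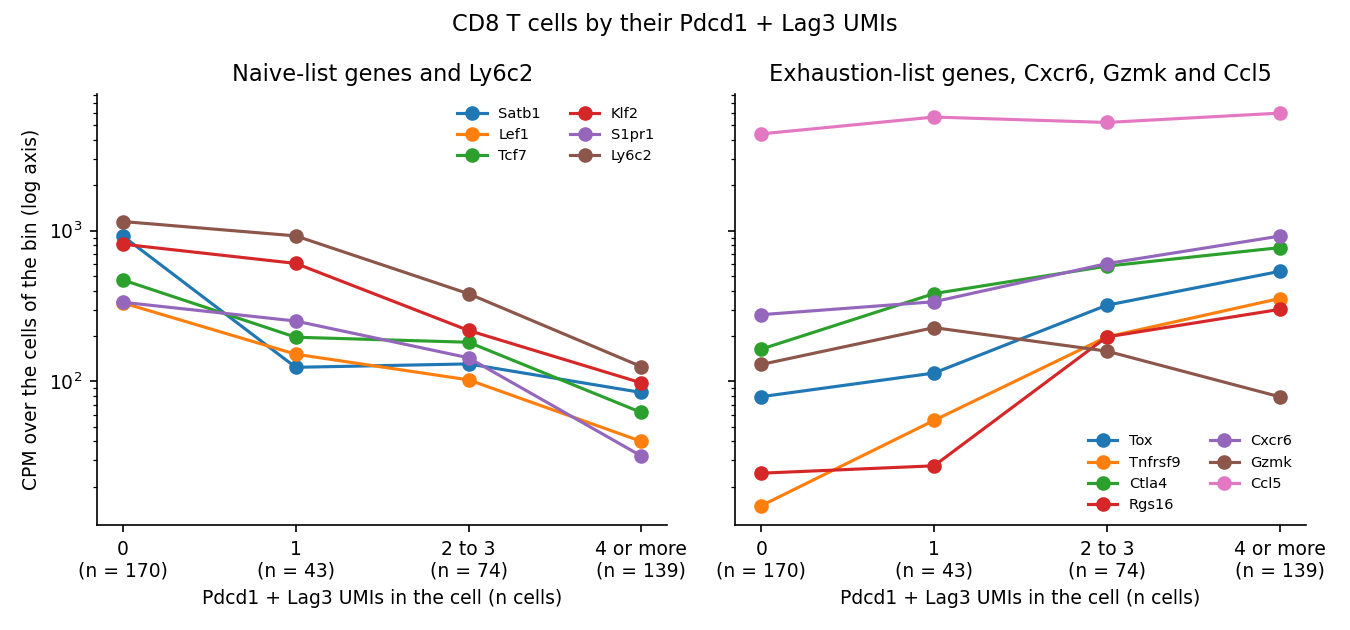
Level (CPM, log axis) of 13 genes in CD8 T cells with 0, 1, 2 to 3, and 4 or more UMIs of Pdcd1 and Lag3 together, both libraries summed, with naive-list genes and Ly6c2 on the left and exhaustion-list genes, Cxcr6, Gzmk and Ccl5 on the right. Tcf7 and Klf2 step down from 471 to 62.3 CPM and from 814 to 97.8 CPM, Satb1 drops between members and the next class, and Tox steps up from 79.2 to 537 CPM.

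Against all other kept cells, which are mostly not T cells, members were set apart by T cell genes and by naive genes. Over all 4224 genes with 50 CPM or more on either side, 1703 (40.3%) were higher and 1758 (41.6%) lower in members in both libraries, with a median log2 ratio of 0.03. Of the T cell identity list, 18 of 18 genes were higher in both libraries (median log2 ratio 2.32). Of the naive list, 9 of 11 were higher (Ccr7, Lef1, Tcf7, Il7r, S1pr1, Klf2, Satb1, Foxp1 and Bach2) and Actn1 was lower (median 2.03). Of the memory list, 7 of 12 were higher and Cd44 and Itgae were lower (median 1.17). Of the Gzmk programme list, 13 of 14 were higher and the chemokine gene Ccl3 was lower (median 1.18). Of the effector list, 3 of 12 were higher and 4 were lower (median -0.12).

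The 15 genes with the highest ratio to all other kept cells were Cd8a, Gm8369, Gramd3, Cmah, Bcl11b, Nsg2, Gzmk, S1pr1, Ifi214, Dtx1, Themis, Fam169b, Lef1, Tcf7 and Lat. Gramd3 had 430 CPM in members against 39.6 CPM in all other kept cells. Cmah, which makes the sialic acid Neu5Gc, had 126 against 8.71 CPM. Dtx1, a ubiquitin ligase of the Notch pathway, had 55.7 against 2.41 CPM, from 52 UMIs in 27 members. Conventional CD4 T cells lay nearer to members on these genes, with 205 CPM of Gramd3, 66.0 CPM of Cmah and 38.3 CPM of Dtx1. Bcl11b, a transcription factor of T cell identity, had 473 against 47.7 CPM, and was not higher than in conventional CD4 T cells (530 CPM). Themis likewise had 265 CPM in members, 264 CPM in CD8 T cells with Pdcd1 or Lag3 and 267 CPM in conventional CD4 T cells.

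Conventional CD4 T cells (236 cells with Cd4 and without Cd8a, Cd8b1 or Foxp3) were compared next. Over 3884 genes, 988 (25.4%) were higher and 1388 (35.7%) lower in members in both libraries (median -0.05). Of the naive list, 7 of 11 genes were higher in members and Il7r and S1pr1 were lower (median 0.41). Il7r, the receptor of the survival cytokine interleukin 7, had 426 CPM in members and 835 CPM in the CD4 T cells. S1pr1, which lets T cells leave tissue into lymph and blood, had 335 against 611 CPM. Lef1 had 332 against 195 CPM and Satb1 921 against 430 CPM. Of the Gzmk programme list, 10 of 14 were higher and Cxcr4 was lower (median 1.33), and of the exhaustion and activation list, Cd160 was higher and 9 of 13 were lower (median -1.83).

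The nearest cells were the 256 CD8 T cells with Pdcd1 or Lag3, which passed every other condition. Over 3762 genes with 50 CPM or more on either side, 202 (5.37%) were higher and 349 (9.28%) were lower in members in all 6 replicates, with a median log2 ratio of -0.01. Of the naive list, 8 of 11 were higher in all 6 replicates (Lef1, Tcf7, Il7r, S1pr1, Klf2, Satb1, Foxp1 and Bach2) and 0 were lower (median 1.83). Of the T cell identity list, 0 of 18 were higher and Cd3g, Trbc2 and Cd8a were lower in all 6 (median -0.03). Of the exhaustion and activation list, 0 of 15 were higher and 10 were lower in all 6 (Havcr2, Ctla4, Tox, Entpd1, Tnfrsf9, Tnfrsf4, Tnfrsf18, Nr4a2, Rgs16 and Bhlhe40, median -1.44). The cells were split by Pdcd1 and Lag3, and depth differed between them, so these counts are read as a description only.

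Satb1 (chr17:51736187-51833290) had member levels of 694, 1835 and 1099 CPM in Empty vector h1, h7 and h8 and 870, 821 and 1039 CPM in Bmal1 WT h3, h5 and h9. In CD8 T cells with Pdcd1 or Lag3 the same replicates had 85.1, 98.4 and 125 CPM and 79.1, 181 and 9.78 CPM. The lowest member replicate lay well above the highest replicate of the other cells. Ccr7 had member levels of 82.4, 357 and 325 CPM (Empty vector) and 465, 520 and 577 CPM (Bmal1 WT). In the other cells the level of Ccr7 was 93.8, 0 and 0 CPM and 33.3, 46.8 and 0 CPM. In h1 the member level was the lower of the pair, and in the other replicates members were higher. At least 1 Ccr7 UMI was read in 32.4% of members, in 5.08% of the other CD8 T cells and in 1.45% of the 825 kept cells that had a UMI of Col1a1, Col3a1 or Sox10 and none of Ptprc, Cd3e or Cd3d, which should lack the gene (median 17705 UMIs). After thinning every cell to 1000 UMIs, the share was 16.0% of members against 3.14% of the other CD8 T cells.

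Lef1 (chr3:131110471-131224356) had member levels of 218, 541 and 387 CPM (Empty vector) and 273, 369 and 877 CPM (Bmal1 WT). In CD8 T cells with Pdcd1 or Lag3, Lef1 had 53.8, 56.2 and 52.4 CPM and 99.9, 174 and 48.9 CPM. Tcf7 (chr11:52252371-52283014) had 409, 531 and 488 CPM and 385, 687 and 669 CPM in members, and 90.1, 112 and 84.6 CPM and 121, 402 and 0 CPM in the other cells. For Lef1 no replicate overlapped, whereas for Tcf7 the replicate h5 of the other cells was above the lowest member replicate, and within each replicate both genes were higher in members. Genes without a place in the lists that were among the 10 with the highest ratio were Sh3bp5, Nsg2, Il6ra, Klf3, Cmah and D1Ertd622e. Klf3, a transcriptional repressor, had 303 against 65.4 CPM, and Il6ra, the interleukin 6 receptor, had 57.8 against 6.09 CPM.

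Tox had 97.1, 77.3 and 90.8 CPM (Empty vector) and 50.6, 33.5 and 92.3 CPM (Bmal1 WT) in members. In CD8 T cells with Pdcd1 or Lag3 its level was 542, 323 and 487 CPM and 279, 234 and 411 CPM. The highest member replicate was below the lowest of the other cells. Ctla4, an inhibitory receptor of activated T cells, had 165, 309 and 196 CPM and 91.1, 134 and 0 CPM in members, against 721, 675 and 709 CPM and 670, 736 and 430 CPM. Tnfrsf9, the costimulatory receptor 4-1BB, had 14.7, 0 and 28.7 CPM and 30.4, 0 and 0 CPM in members, against 230, 253 and 475 CPM and 246, 80.3 and 333 CPM. Neither gene's replicates overlapped. The 10 genes with the lowest ratio were Gm156, Klri2, Cd200r1, 2900026A02Rik, Tnfrsf9, Sema6d, Tnfrsf4, Rgs16, AC163354.1 and Chn2. Klri2, a killer cell lectin-like receptor, had 2.14 against 154 CPM, and Cd200r1, an inhibitory receptor for CD200, had 1.07 against 98.1 CPM.

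**Figure D2:**
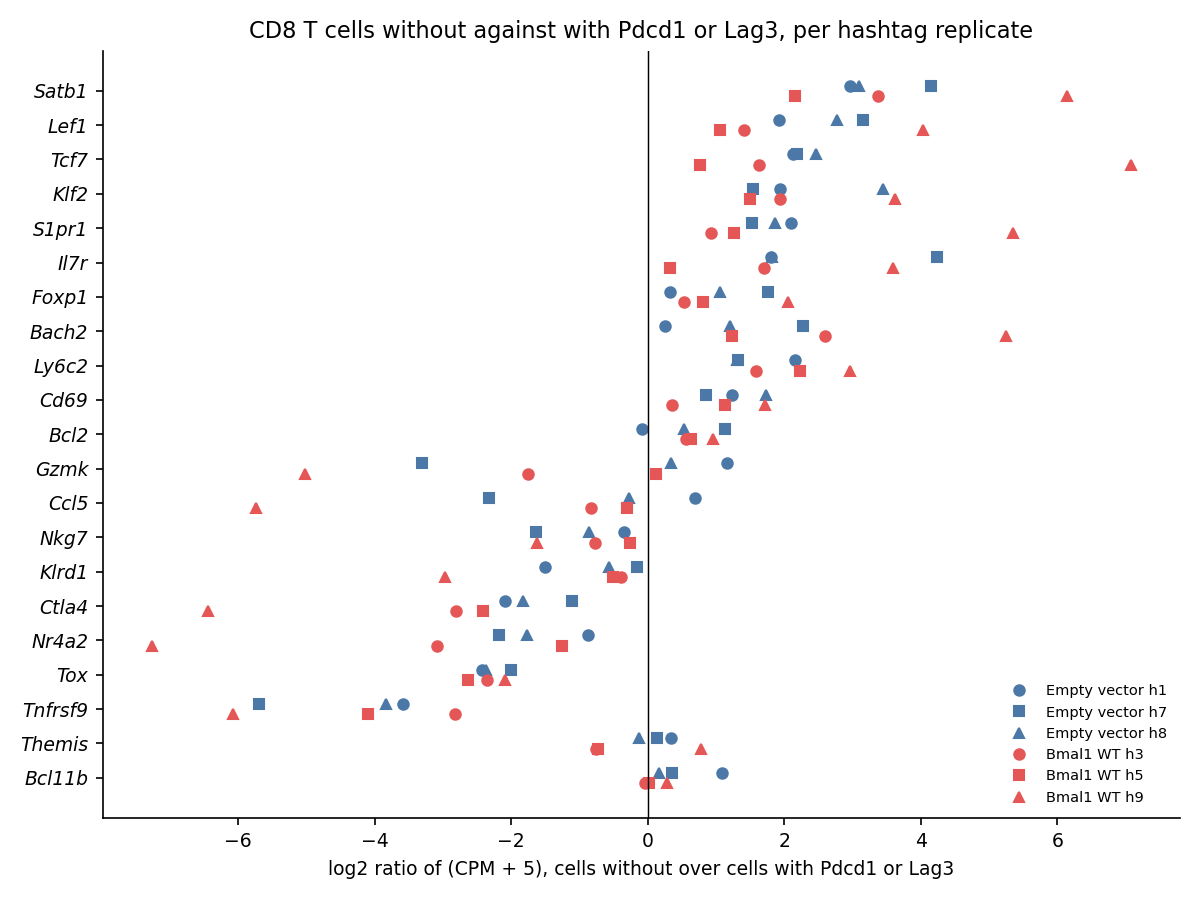
Log2 ratio of the level (CPM with 5 added) in members over that in CD8 T cells with Pdcd1 or Lag3, 1 point per hashtagged replicate, for 21 genes, with Empty vector in blue, Bmal1 WT in red and a line at equal levels. All 6 points of Satb1, Lef1 and Tcf7 lie to the right of the line, those of Tox, Tnfrsf9 and Ctla4 lie to its left, and those of Gzmk lie on both sides.

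The memory list was split. Of its 12 genes, Ly6c2 and Cd69 were higher and Il2rb and Cxcr6 lower in members than in CD8 T cells with Pdcd1 or Lag3 in all 6 replicates (median log2 ratio -0.08). Ly6c2, a Ly6C antigen of memory CD8 T cells, had 1318, 1169 and 1252 CPM (Empty vector) and 1366, 1274 and 416 CPM (Bmal1 WT) in members, and 290, 464 and 503 CPM and 454, 268 and 48.9 CPM in the other cells. Within each replicate the member level was higher, while the lowest member replicate, h9, lay within the range of the other cells. Cxcr6, a chemokine receptor of tissue-resident T cells, had 277 CPM in members against 759 CPM, and Il2rb, the beta chain of the interleukin 2 and 15 receptors, had 694 against 1363 CPM. Bcl2, a survival factor, had 806 against 598 CPM. Zfp683, which encodes the residency factor Hobit, had 2.14 CPM in members and 4.99 CPM in the other cells. The member value lay below the level that 3 counts give in the members (3.21 CPM).

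The Gzmk programme was not higher in members than in CD8 T cells with Pdcd1 or Lag3. Of its 14 genes, Cxcr4 was higher and Ccl3, Nkg7, Cst7, Klrd1, Klrc1 and Fasl were lower in all 6 replicates (median -0.50). Gzmk itself (chr13:113171608-113225908) had 224, 9.66 and 134 CPM (Empty vector) and 60.7, 117 and 0 CPM (Bmal1 WT) in members, where 0 counts in h9 allow up to 69.3 CPM. In the other cells its level was 97.6, 141 and 105 CPM and 217, 107 and 157 CPM. The member replicates spread around the others, with h1 above all of them and h7 and h9 below. A Gzmk UMI was read in 31.8% of members and in 37.5% of CD8 T cells with Pdcd1 or Lag3, with medians of 4723 and 5652 UMIs per cell, and in 0.121% of the cells with Col1a1, Col3a1 or Sox10 described above. After thinning to 1000 UMIs the shares were 11.8% and 12.6%. Ccl5, a chemokine of memory and effector cells, had 4387 CPM in members and 5794 CPM in the other cells. Nkg7, a protein of cytotoxic granules, had 984 against 1617 CPM.

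Of the 12 effector genes, 0 were higher and 6 lower in members in all 6 replicates (Prf1, Id2, Cx3cr1, S100a4, S100a6 and Lgals1, median -0.81). Prf1, the pore-forming protein of killer cells, had 68.5 against 241 CPM, whereas Gzma, a granzyme, had 611 against 372 CPM. Of the 17 interferon response genes, 2 were higher in all 6 (Igtp and Gbp2, interferon-induced GTPases) and 0 were lower, with a median of 0.88. Of the 16 immediate early and heat shock genes, which rise with stimulation and with handling, Jun and Ier2 were higher and Jund was lower (median 0.04).

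Markers of other cell types summed lower in members than in all other kept cells, but were not absent. Of the 8 B cell markers, 6 were at 0 and the summed level was 4.28 CPM. Immunoglobulin transcripts summed to 133 CPM and were read in 63 members, at 109 to 196 CPM in the Empty vector replicates and 83.8 to 208 CPM in the Bmal1 WT replicates. Macrophage markers summed to 83.5 CPM against 1316 CPM in all other kept cells, with 0 to 94.1 CPM in Empty vector and 0 to 425 CPM in Bmal1 WT replicates. Natural killer cell markers summed to 124 CPM, with 67.6 to 167 CPM and 33.5 to 192 CPM. Melanoma markers summed to 41.8 CPM and were read in 9 members. The 7 members with several hashtags held 32 of the melanoma marker UMIs and the 162 members with 1 hashtag held 7. The part of these transcripts in the results was not tested.

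The members were not uniform, and Gzmk and Ccr7 were read mostly in different cells. Ccr7 without Gzmk was read in 50 members (29.4%), Gzmk without Ccr7 in 49 (28.8%), both in 5 and neither in 66. The median depth was 5523, 4907, 5062 and 3282 UMIs, so the cells with neither were the shallowest. After thinning 169 members to 1000 UMIs, 27 had Ccr7, 20 had Gzmk and 0 had both.

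Genes that did not define these states also differed between them. Lef1 had 575 CPM in the members with Ccr7 and 159 CPM in those with Gzmk, and Tcf7 had 831 against 229 CPM. Satb1 had 1657 against 311 CPM and Il7r had 714 against 113 CPM. The reverse held for Ccl5, at 656 against 8100 CPM, and for Gzma, at 11.2 against 1207 CPM. Cxcr6 had 36.3 CPM in the members with Ccr7 and 462 CPM in those with Gzmk. Itga1, an integrin of tissue-resident cells, had 27.9 against 217 CPM, and S100a6, a calcium-binding protein of antigen-experienced cells, had 248 against 1265 CPM. Ly6c2 differed less, at 873 and 1021 CPM, and Klf2 had 1013 and 567 CPM. The members in which neither was read lay between on Tcf7 (280 CPM), Ccl5 (4975 CPM), Gzma (665 CPM) and Cxcr6 (424 CPM). They did not lie between on every gene. Ly6c2 was above both at 1395 CPM, as was Il2rb at 992 CPM, against 605 CPM with Ccr7 and 497 CPM with Gzmk. Klrc1, a killer cell lectin-like receptor, had 227 CPM against 89.3 and 148 CPM.

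**Figure D3:**
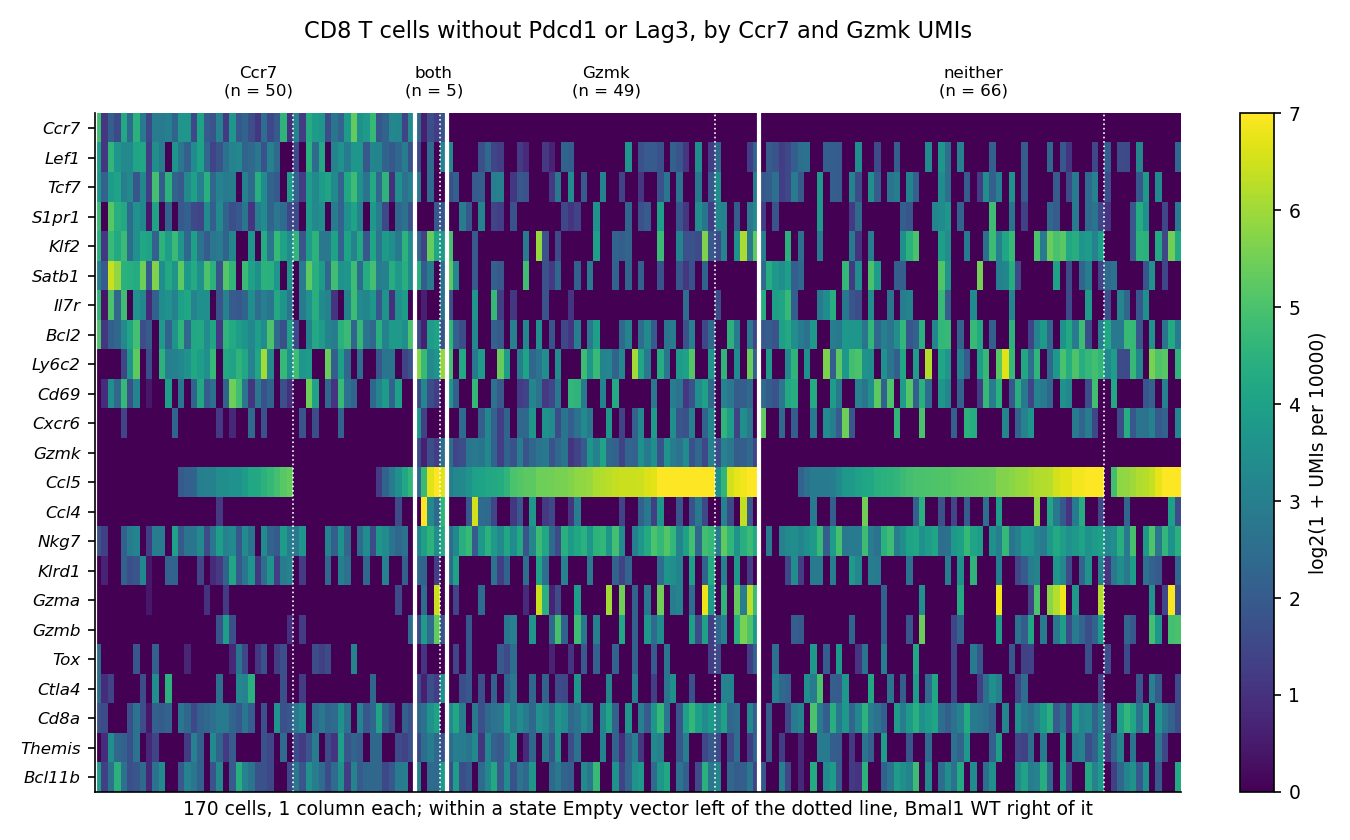
Each of the 170 columns is a member and each of the 23 rows a gene, colored by log2 of 1 plus its UMIs per 10000 UMIs of the cell. Columns are grouped by whether Ccr7 (50 cells), both (5), Gzmk (49) or neither (66) was read and, within a group, sorted by library and by Ccl5, and the columns with Ccr7 are bright in Satb1 and Tcf7 where those with Gzmk are bright in Ccl5 and Nkg7.

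The replicates held these states in unequal shares. Ccr7 without Gzmk was read in 11.3%, 52.9% and 32.4% of the members of Empty vector h1, h7 and h8, and in 41.2%, 38.5% and 85.7% of those of Bmal1 WT h3, h5 and h9. The groups overlapped, with h1 lowest and h9, which held 7 members, highest. Gzmk without Ccr7 was read in 40.9%, 0% and 32.4% and in 17.7%, 23.1% and 0%. For the whole libraries, Ccr7 without Gzmk was read in 31 of 131 members in Empty vector (23.7%, interval 16.7% to 31.9%) and in 19 of 39 in Bmal1 WT (48.7%, interval 32.4% to 65.2%). These shares were not tested between groups, and h1, which held the most members, weighs most in the Empty vector library.

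The share of members was compared between Bmal1 WT and Empty vector with 3 denominators, each by an exact two-sided permutation test over 3 against 3 replicates. This exact test cannot go below p = 0.1 with 3 against 3, and p-values were adjusted over the 3 shares after Benjamini and Hochberg. Of all kept cells, members were 5.06%, 2.44% and 3.30% in Empty vector (mean 3.6% ± 1.34, SD, n = 3) and 2.13%, 2.63% and 2.15% in Bmal1 WT (2.30% ± 0.283, SD, n = 3). The groups overlapped and the exact test gave p = 0.2 (adjusted p = 0.3) for a difference of -1.30 percentage points, which was -0.569 points without Empty vector h1 and -0.705 points with at least 2 Cd8b1 UMIs. Of T cells, members were 15.1%, 7.62% and 10.9% in Empty vector (11.2% ± 3.75, SD, n = 3) and 9.14%, 11.3% and 9.46% in Bmal1 WT (9.97% ± 1.17, SD, n = 3). The difference of -1.24 points had an exact p = 0.8 (adjusted p = 0.8), and it was 0.715 points without Empty vector h1, -3.03 points without h7 and -1.90 points without Bmal1 WT h5.

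Of CD8 T cells in the same gate, 38.2%, 58.6% and 51.4% lacked Pdcd1 and Lag3 in Empty vector (49.4% ± 10.4, SD, n = 3), against 36.2%, 34.2% and 29.2% in Bmal1 WT (33.2% ± 3.61, SD, n = 3). The groups did not overlap, and the difference of -16.2 points had the smallest exact p the design allows, p = 0.1 (adjusted p = 0.3). Over whole libraries, with h1 weighing most, the shares were 42.4% (interval 36.8% to 48.1%) and 33.3% (interval 24.9% to 42.6%). Members of the Bmal1 WT replicates were deeper, with medians of 5072, 4819 and 6645 UMIs against 3582, 4627 and 4484 UMIs. With every CD8 T cell thinned to 1000 UMIs before Pdcd1 and Lag3 were read, the shares were 61.8%, 82.8% and 76.4% against 78.7%, 60.5% and 62.5%. They then overlapped, with a difference of -6.41 points (exact permutation p = 0.6). This design could not have passed 0.05 at any size of difference, so the test says nothing of equal shares. By depth, without thinning, the share under 3000 UMIs was 55.7% in Empty vector and 60% in Bmal1 WT (6 of 10 CD8 T cells). It was 43.3% and 42.0% among CD8 T cells of 3000 to 6000 UMIs. At 6000 to 10000 UMIs it was 38.2% (interval 26.7% to 50.8%) and 23.3% (interval 11.8% to 38.6%). At 10000 UMIs or more it was 25% and 14.3% (2 of 14 CD8 T cells, interval 1.78% to 42.8%).

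**Figure D4:**
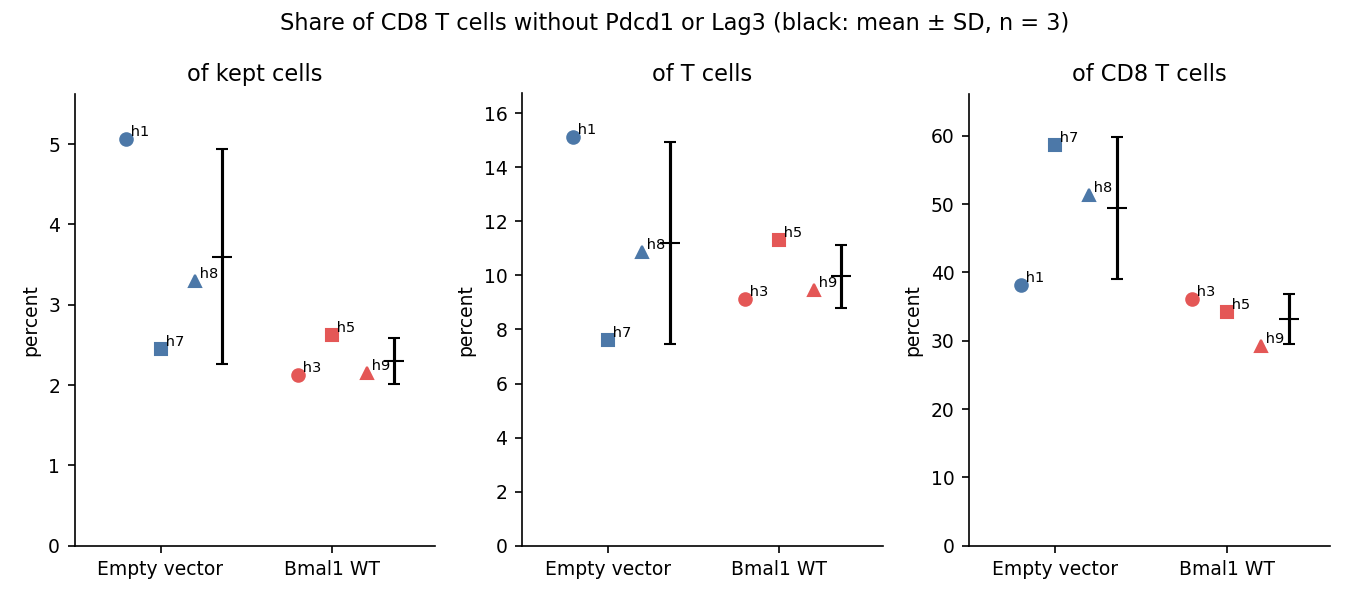
Share of members (percent, axes from 0) among kept cells, T cells and CD8 T cells, 1 point per hashtagged replicate, with the mean and SD of the 3 replicates of a group in black. In the panel of CD8 T cells the Empty vector replicates lie at 38.2% to 58.6% and the Bmal1 WT replicates at 29.2% to 36.2%.

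Genes of the members were then tested between Bmal1 WT and Empty vector on UMIs summed per replicate with edgeR's quasi-likelihood test, with Benjamini-Hochberg adjustment at 0.05 over all genes with at least 50 UMIs. Of 2870 genes, 0 passed in either direction (0%). At an unadjusted p under 0.05, 38 genes (1.32%) were higher and 86 (3%) lower in Bmal1 WT, and DESeq2 called 0 genes higher and 1 lower. The log2 fold change was negative for 1704 of the 2870 genes (59.4%). The replicates did not overlap for 110 genes in the higher direction (3.83%) and 231 in the lower (8.05%). The median log2 fold change of all genes was -0.11, and -0.01 with TMM scaling, so sizes are best read against that shift. Summed counts do not separate fewer cells that express a gene from less RNA per cell.

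Ikzf2 (chr1:69531214-69687245), which encodes the transcription factor Helios, had the smallest p. Its level in members was 221, 531 and 253 CPM in Empty vector h1, h7 and h8 and 30.4, 0 and 46.2 CPM in Bmal1 WT h3, h5 and h9. All Bmal1 WT replicates were below all Empty vector replicates. The log2 fold change was -3.62 (SE 0.62), with an unadjusted p of 3.59e-05 and an adjusted p of 0.103 in edgeR, which misses the threshold, and an adjusted p of 0.0111 in DESeq2. An Ikzf2 UMI was read in 18 of 71, 6 of 17 and 9 of 37 members of the Empty vector replicates and in 1 of 17, 0 of 13 and 1 of 7 of the Bmal1 WT replicates. A single member held 43 of 197 Ikzf2 UMIs. With the highest member of each gene left out, an alternative added after the data were seen, the log2 fold change was -3.02 (adjusted p = 0.109, edgeR).

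The main counts of Ikzf2 were 75, 55 and 53 UMIs (h1, h7 and h8), against 3, 0 and 2 (h3, h5 and h9). At least 2 Cd8b1 UMIs per member left 40, 4 and 8, against 0, 0 and 0 (edgeR adjusted p = 0.966). Most Ikzf2 UMIs of h7 and h8, but not of h1, thus came from members with exactly 1 Cd8b1 UMI. Leaving out members with markers of other cell types left 8, 4 and 0, against 0, 0 and 0, too few to test. Those markers included Klra7, Fcer1g and Tcrg-C1, which were higher in members with an Ikzf2 UMI than in those without, as described further below. The members then left in h1, h7 and h8 held 137482, 26026 and 65222 of 339990, 103551 and 209235 UMIs. With no filter on cells, h9 had 13 Ikzf2 UMIs in place of 2 and the fold change on the log2 scale came to -1.95 (edgeR adjusted p = 0.889).

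The other T cells had the same direction of Ikzf2 over whole libraries, lower in Bmal1 WT, with 352 against 191 CPM for CD8 T cells with Pdcd1 or Lag3 and 348 against 158 CPM for conventional CD4 T cells, but not in each replicate. CD8 T cells with Pdcd1 or Lag3 had 348, 239 and 262 CPM in Empty vector and 121, 315 and 313 CPM in Bmal1 WT, and these replicates overlapped. Conventional CD4 T cells had 254, 184 and 469 CPM against 113, 286 and 0 CPM, which overlapped as well. Whether the change in members differs from that in these cells was not tested. Within the members, Ikzf2 was read in 9 of 31 cells with Ccr7 in Empty vector and in 0 of 19 in Bmal1 WT, in 10 of 42 cells with Gzmk against 0 of 7, and in 16 of 54 cells with neither against 2 of 12.

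Nr4a2 (chr2:57106830-57124003), a nuclear receptor induced by T cell receptor signals, had 535, 222 and 201 CPM in Empty vector and 60.7, 83.8 and 0 CPM in Bmal1 WT members. The groups did not overlap, at a log2 fold change of -2.62 (SE 0.577, edgeR adjusted p = 0.515). A single member of h1 with 18928 UMIs held 88 of 286 Nr4a2 UMIs, together with 484 of 649 UMIs of the chemokine gene Ccl4 and 103 of 157 of Nr4a3. Without the highest member of each gene Nr4a2 was at -2.12 (edgeR adjusted p = 0.21), and with members thinned to 1000 UMIs at -1.43 (edgeR adjusted p = 0.504). In CD8 T cells with Pdcd1 or Lag3, Nr4a2 had 986, 1026 and 697 CPM against 554, 207 and 763 CPM, which overlapped. Nfkbid, an inhibitor of NF-kappa-B, had 212, 106 and 81.3 CPM against 20.2, 16.8 and 23.1 CPM, at a log2 fold change of -2.78 (SE 0.651, edgeR adjusted p = 0.515). Its replicates did not overlap, and the same member of h1 held 42 of its 106 UMIs. Gpbp1l1 had 200, 212 and 162 CPM against 40.5, 83.8 and 46.2 CPM, at -1.77 (SE 0.412, edgeR adjusted p = 0.515). Slc4a7, a bicarbonate transporter, had 135, 77.3 and 100.4 CPM against 30.4, 33.5 and 0 CPM, at -2.12 (SE 0.593, edgeR adjusted p = 0.909). Neither of these genes overlapped between groups.

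In the other direction, Rps24, a ribosomal protein whose reads near-identical copies can share, had 5097, 6123 and 5812 CPM in Empty vector and 7780, 7694 and 10272 CPM in Bmal1 WT. The log2 fold change was 0.59 (SE 0.171, edgeR adjusted p = 0.909) and the groups did not overlap. Txnip, an inhibitor of thioredoxin and of glucose uptake, had 465, 531 and 483 CPM against 678, 939 and 970 CPM, at 0.79 (SE 0.236, edgeR adjusted p = 0.915). Rras2, a small GTPase of antigen receptor signaling, had 73.5, 57.9 and 95.6 CPM against 152, 168 and 208 CPM, at 1.13 (SE 0.365, edgeR adjusted p = 0.915). The predicted gene Gm10076 had 509, 521 and 731 CPM against 981, 821 and 1131 CPM, at 0.73 (SE 0.24, edgeR adjusted p = 0.915). These 4 genes had no overlap between groups. With members thinned to 1000 UMIs, Gm10076 was at 0.09 (edgeR adjusted p = 0.993) and Txnip at 0.52 (edgeR adjusted p = 0.741). Thbs1, the matrix protein thrombospondin 1, had 26.5, 0 and 4.78 CPM against 435, 0 and 0 CPM, at 3.59 (SE 1.02, edgeR adjusted p = 0.909). Its groups overlapped, and 43 of 53 UMIs came from a single member of h3 that also held 100 UMIs of Cxcl10, 18 of the macrophage gene Lyz2 and 0 of Trac.

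**Figure D5:**
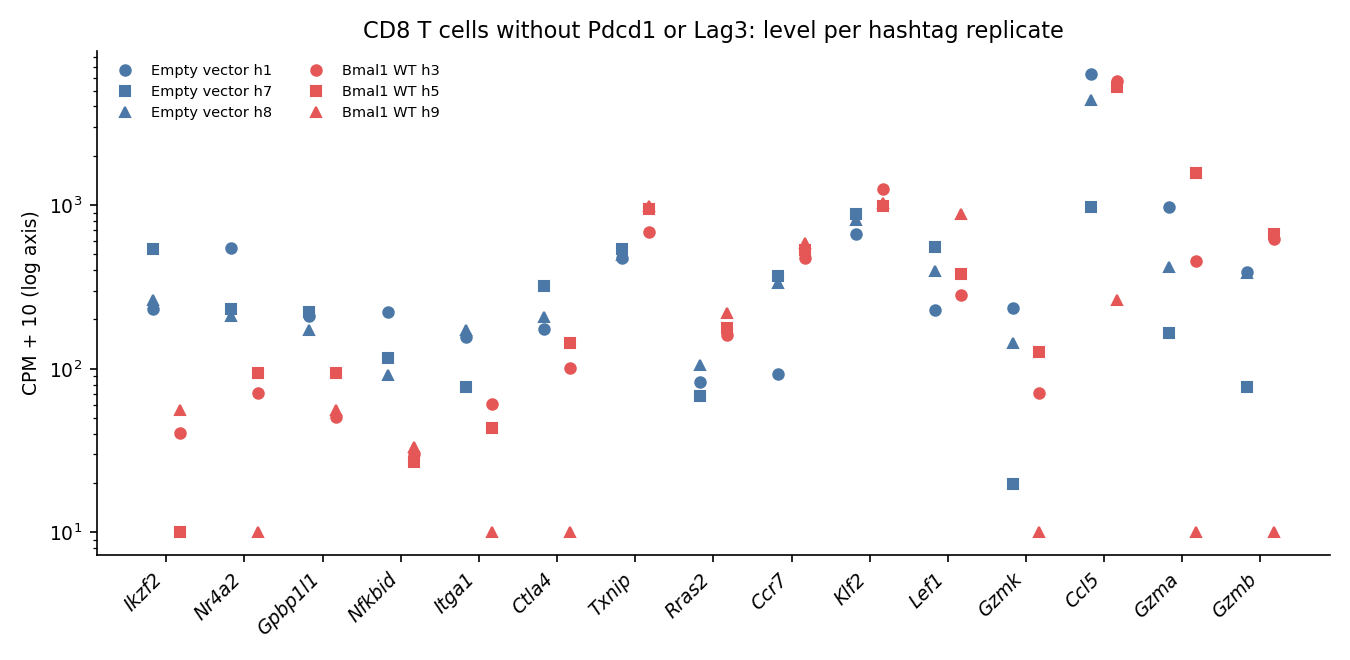
Level in members (CPM with 10 added, log axis, so that a level of 0 is drawn at 10) of 15 genes in each hashtagged replicate, Empty vector in blue beside Bmal1 WT in red. Before the addition Ikzf2 lies at 221 to 531 CPM in Empty vector and at 0 to 46.2 CPM in Bmal1 WT, and the replicates of Gzmk overlap.

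The naive list had 11 of 13 genes tested, of which 8 had a positive and 3 a negative log2 fold change in Bmal1 WT (median 0.39, against -0.11 over all genes). In edgeR 0 passed the adjusted threshold and 3 (Ccr7, Klf2 and Igfbp4) had an unadjusted p under 0.05, with 25 of 75 Igfbp4 UMIs in h9. Ccr7, the receptor that draws T cells to lymph nodes, had the member levels given above, and its groups did not overlap, at 1.10 (SE 0.427, edgeR adjusted p = 0.915), with h1 far below the other Empty vector replicates. Klf2 had 656, 869 and 798 CPM against 1244, 972 and 1016 CPM, at 0.50 (edgeR adjusted p = 0.915), again without overlap. Lef1 had a log2 fold change of 0.37, and its replicates, given above, overlapped.

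The Gzmk programme list had 14 of 14 genes tested, 3 positive and 11 negative (median -0.39), with 0 at an unadjusted p under 0.05 in either direction in edgeR and no gene free of overlap. Gzmk had a log2 fold change of -1.12 (SE 0.748, edgeR adjusted p = 0.915), Ccl5 of -0.04. In the memory list 1 of 11 genes tested was positive and 10 were negative (median -0.34). Itga1 had 147, 67.6 and 163 CPM against 50.6, 33.5 and 0 CPM, at -1.94 (edgeR adjusted p = 0.915), and did not overlap. In CD8 T cells with Pdcd1 or Lag3, Itga1 had 144, 183 and 137 CPM against 187, 221 and 215 CPM, so there Bmal1 WT was the higher group. The difference between these changes was not tested.

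The exhaustion and activation list had 9 of 16 genes tested, all 9 negative (median -0.90, against -0.11 and 59.4% negative over all genes). Of these, 4 (Ctla4, Icos, Nr4a2 and Nr4a3) had an unadjusted p under 0.05 in edgeR, against 3% of all genes in that direction. After adjustment 0 passed. A single member of h1 held 103 of 157 Nr4a3 UMIs and 88 of 286 Nr4a2 UMIs. Pdcd1 and Lag3 themselves were set to 0 by the choice of cells. Levels of list genes moved with the UMIs of both, with Ctla4 at 164 CPM in members and 772 CPM in cells with 4 or more. Members had medians of 4407 UMIs in Empty vector and 4993 UMIs in Bmal1 WT. The part of the choice and of depth in the differences of this list and of the naive list was not tested. The T cell identity list had 18 genes tested, 5 positive and 13 negative (median -0.19). Of these 18, 4 had no overlap between groups with Bmal1 WT lower, against 8.05% of all genes, and 0 with Bmal1 WT higher. The effector list had 12 genes tested, 5 positive and 7 negative (median -0.07), and the interferon response list had 16, with 7 positive and 9 negative (median -0.08). The immediate early and heat shock list had 16, with 5 positive and 11 negative (median -0.28). Only 2 of 19 clock genes reached 50 UMIs in members. Bhlhe40, a repressor of clock and T cell genes, was at -0.90 and Rora, a nuclear receptor of the clock, at -0.13. Arntl, the gene of Bmal1, had 23.5, 19.3 and 19.1 CPM in Empty vector and 20.2, 0 and 0 CPM in Bmal1 WT members, where 0 counts in h5 and h9 allow up to 50.3 and 69.3 CPM. A difference in Arntl was not detectable at this depth, and the members are T cells, not cells of the YUMM2.1 line.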

How the data were processed

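The authors deposited counts: raw UMI counts per gene and cell barcode, filtered to called cells, made with Cell Ranger 6.1.2 per the file headers and not normalized. The build was mm10 per the submitters' processing notes. Not given in the sources used here: aligner settings, annotation, use of strand, sampling and sorting. The Bmal1 bHLH copy of the Bmal1 WT parts was not used.

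Members and gene lists were chosen with earlier results of these data known. Cells were kept and chosen as stated above. A Gaussian mixture of 2 components on log hashtag counts with 1 added (scikit-learn 1.9.0, Python 3.11.15) set the hashtag minimum in each library, and cells above several minimums entered no replicate. No doublet caller was run. UMIs of members were summed per hashtag and tested with edgeR 4.0.16 in R 4.3.3, with total UMIs as library size, genes of at least 50 UMIs, and the SE taken as the size of the log2 fold change over the root of F. DESeq2 1.42.0, TMM, other filters on genes and cells, thinning to 1000 UMIs, another hashtag assignment and leaving out replicates were alternatives. The genes of the choice were not read as results.

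Genes named between groups were the 5 with the smallest p in each direction, since fewer than 5 passed. Against all other kept cells they were the 15 with the highest ratio (5 CPM added, at least 50 CPM and 20 UMIs), against CD8 T cells with Pdcd1 or Lag3 the 10 in each direction. Other genes named come from the lists. Positions were taken from GENCODE M21 (GRCm38). A gene of the naive list is not reported here and was left out of that list's counts and of the rankings.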

Additional observations from a re-analysis of the deposited data

How the results depend on the processing

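With 37 to 125 members per group, genes under 50 UMIs were not tested and a missed threshold does not show equal levels. The count of genes called in edgeR was 0 in each direction under every alternative but 1: with no gene filter, 6 of 11651 genes were higher and 5 lower. These were Ikzf2, Nr4a2, Nr4a3, Nfkbid, Ccl4, Thbs1, Cxcl10, Arg1, Lyz2, Lpl and Igfbp4. Replicate h1 held 545 of 646 Ccl4 UMIs and h3 held 141 of 215 Cxcl10 UMIs. A single h3 member held 43 of 53 Thbs1 UMIs, 20 of 29 Arg1, 18 of 22 Lyz2 and 25 of 27 Lpl. That member also held 100 UMIs of Cxcl10 and 0 of Trac. DESeq2 called 1 gene lower, Ikzf2. Leaving out each replicate left 0 called in each direction (0 to 0). For the 10 named genes, 144 tested values under the alternatives kept their direction and side of the threshold and 5 passed it, and 10 values with no test kept their direction. Ikzf2 ranged from -4.01 to -3.12 and Nr4a2 from -3.00 to -1.94 when replicates were left out. Larger moves were -1.95 for Ikzf2 with no cell filter, -1.43 for Nr4a2 and 0.09 for Gm10076 with members thinned to 1000 UMIs, and 0.89 for Rps24 with members carrying markers of other cell types left out; the causes were not tested. Ikzf2 with at least 2 Cd8b1 UMIs had 0 UMIs in Bmal1 WT, so its fitted value is no size. Without the highest member of each gene Thbs1 fell under 50 UMIs.

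Leaving out replicates moved the difference in members per kept cells between -1.88 and -0.569 percentage points, per CD8 T cells between -21.8 and -11.6, and per T cells between -3.03 and 0.715. Members per T cells also reversed with at least 2 Cd8b1 UMIs (0.0245 points). No other alternative changed the direction of a share. No paired analysis was possible because the groups carry different hashtags.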

Other observations

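The members with an Ikzf2 UMI were described further, with genes chosen after their values were seen and with no test. Among members with 1 hashtag, 35 had Ikzf2 and 127 did not, with medians of 5623 and 4458 UMIs. Over all members, Ikzf2 was read in 36 of 131 in Empty vector and in 2 of 39 in Bmal1 WT. The split therefore follows the library too, and the part of the library in the differences below was not tested. Cells with Ikzf2 had less of both CD8 chains, with Cd8b1 at 408 against 859 CPM and Cd8a at 431 against 654 CPM, while the receptor gene Trac was similar at 663 and 629 CPM. The Ly49 receptor genes Klra6 and Klra7 had 109 against 3.15 CPM and 150 against 7.88 CPM. In the cells with Ikzf2, the highest cell held 7 of 24 Klra6 UMIs and 11 of 33 Klra7 UMIs. Constant regions of the gamma receptor chain were higher as well, with Tcrg-C2 at 109 against 7.88 CPM and Tcrg-C1 at 40.8 against 1.58 CPM. Trdc had 54.5 CPM, but 11 of its 12 UMIs came from a single cell. Fcer1g, a signaling adaptor of innate-like lymphocytes, had 127 against 23.7 CPM, and Cd160 had 127 against 37.8 CPM. Ccr7 had 109 against 333 CPM.

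Genes for several inducible products were held by few cells. The member of Empty vector h1 with 484 of 649 Ccl4 UMIs also held 69 of 78 Ccl3 UMIs, 80 of 125 Xcl1 UMIs and 40 of 127 Ifng UMIs, with 1 UMI of Gzmk.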
